A study of Mus musculus with 12 samples.

Results

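Among the genes measured in the mouse olfactory epithelium, 46 met a limit on the fit of a 24 h curve and had their fitted peak in the middle to late subjective day, from circadian time (CT) 4 h to under 8 h. They were chosen by fitting each gene's 12 log2 values by least squares with the cosine and sine of 24 h and keeping genes with an R squared of 0.64 or more and a fitted peak in that window. The rule left out olfactory, vomeronasal and trace amine receptors, small nucleolar RNA genes, predicted genes and 12 genes of the clock, so 17439 of the 19937 measured genes could enter and 0.264% of them did. With no name left out, 0.823% of all genes reached that R squared at any peak and 0.281% did so in the window. These fitted values chose the genes and are given below as a description. The 24 h test over all genes is quoted as background, for clock genes left out by name and under the alternatives. R squared is the share of a gene's variance over the pools that the curve takes up, and for a gene with no rhythm and normal errors 1.01% of fits would reach 0.64, whatever the peak. The count was not stable to the loss of single pools: it was 145 without CT20, 124 without CT28, 78 without CT36, 147 without CT52 and 80 without CT56, and it was 73 after quantile normalization and 29 after median centring, with 34 and 23 of the 46 genes still in the set.

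The samples were bilateral olfactory epithelia of male C57BL/6 mice, kept in 12 h of light and 12 h of darkness for at least 14 days and then moved to constant darkness. Every 4 h from CT12 (24 h after the last lights off) to CT56, RNA of 4 mice was pooled and hybridised to 1 Affymetrix array, which gave 12 pools from 48 mice. The pools form 6 phases of the day with 2 pools each, 1 from the second cycle (CT36 to CT56) and 1 from the first (CT12 to CT32), so p-values measure the spread between pools, and precision is limited by how few arrays there are. All groups share strain, sex and constant darkness, and no group was sampled in a light cycle. In pooled tissue, fewer cells of a type and less RNA per cell cannot be told apart. Omp, the marker of mature olfactory sensory neurons, lay between 12.70 and 13.08 log2 units over the pools and Cyp2g1, of supporting cells, between 13.64 and 13.79. The airway secretory marker Scgb1a1 lay between 4.60 and 5.02, and the skeletal muscle markers Acta1 and Ckm between 8.05 and 8.48 and between 7.92 and 8.60. Of the lists of non-neuronal cells, the mean of 12 airway secretory genes moved between 9.47 at CT12 and 10.15 at CT56, and that of 12 gland genes between 9.68 at CT12 and 11.65 at CT44, with 11.25 at CT32. The part of these cells in the results was not tested. The CT56 and CT32 pools stood apart, with mean correlations to the others of 0.975 and 0.981 over all probes, and both belong to the phase in which most of the 46 genes were highest.

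The circadian clock is a transcription loop in which CLOCK and BMAL1 (Arntl) activate genes with E-box promoters, among them their own repressors Per and Cry. REV-ERB proteins (Nr1d1, Nr1d2) repress genes with REV-ERB/ROR elements, and DBP, TEF and HLF activate genes with D-boxes, so that different elements give different phases. The subjective day, CT0 to CT12, is the rest phase of the mouse, a nocturnal animal, and the olfactory epithelium is known to hold its own clock.

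The promoters of the 46 genes were read for these elements. RefSeq promoter windows (GRCm38.p6, 250 bases before to 50 after each start) matched 38 of the 46 genes and 15562 of all 19937, and motifs were searched on both strands. The motif shares of all genes include genes that the rule leaves out by name, such as the olfactory receptors. The E-box CACGTG was present in 3 of 38 genes (7.89%), against 9.52% of all genes, and the D-box core TTANGTAA in 1 of 38 (2.63%), against 2.42%. The REV-ERB/ROR element TNGGTCA was present in 2 of 38 (5.26%), against 11.9%. The stretches of 120 bases with those matches are shown because they hold every clock element found in the windows of these genes, together with the promoter of Nr4a3, the immediate early gene of the set, which had 4 copies of TGACG, a short form of the cAMP response element (CRE). The capitals mark the matched motif.
Ampd3: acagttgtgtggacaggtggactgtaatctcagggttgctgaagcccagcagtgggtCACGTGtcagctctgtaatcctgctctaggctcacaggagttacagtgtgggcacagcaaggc
Ccdc189: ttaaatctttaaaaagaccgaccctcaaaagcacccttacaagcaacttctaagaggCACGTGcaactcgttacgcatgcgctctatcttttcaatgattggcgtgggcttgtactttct
Tlr1: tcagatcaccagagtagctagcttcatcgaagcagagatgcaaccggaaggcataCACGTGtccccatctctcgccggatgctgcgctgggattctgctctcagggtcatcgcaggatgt
Yif1b: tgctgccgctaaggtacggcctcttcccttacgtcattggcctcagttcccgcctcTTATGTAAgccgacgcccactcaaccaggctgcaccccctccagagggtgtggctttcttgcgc
Ttll10: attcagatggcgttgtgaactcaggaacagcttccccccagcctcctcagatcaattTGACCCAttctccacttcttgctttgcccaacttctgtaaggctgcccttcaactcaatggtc
Nr4a3: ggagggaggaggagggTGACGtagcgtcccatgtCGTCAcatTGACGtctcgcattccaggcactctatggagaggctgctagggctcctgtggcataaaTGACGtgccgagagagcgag
The stretches lie at chr7:110772469-110772588 on the plus strand (Ampd3, E-box), chr7:127588276-127588395 on the minus strand (Ccdc189, E-box), chr5:64932830-64932949 on the minus strand (Tlr1, E-box), chr7:29238162-29238281 on the plus strand (Yif1b, D-box core), chr4:156050900-156051019 on the minus strand (Ttll10, REV-ERB/ROR element) and chr4:48045058-48045177 on the plus strand (Nr4a3). The E-box of Ampd3 began 78 bases before the start in 1 of its 3 annotated windows, and a REV-ERB/ROR element on the same strand, overlapping it, began 83 bases before the start. The Yif1b D-box core began 105 bases before one annotated start.

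Among elements of other factors, the full CRE TGACGTCA was present in 1 of 38 genes, Tmem219, where it lay after the start, against 2.72% of all genes, and its short form TGACG in 8 of 38 (21.1%), against 28%. The heat shock element GAANNTTC was found in 0 of 38, against 7.95%, and the ETS core CCGGAAG in 5 (13.2%), against 13.6%. The CCAAT box (CCAAT) was present in 23 of 38 (60.5%), against 41.7% of all genes, and the GC box GGGCGG in 24 (63.2%), against 53.0%. The median GC content of the windows was 57.7% in both. Of the 34 genes with windows that peaked from CT8 to CT12 and met the same R squared, 26.5% had an E-box and 58.8% a CCAAT box, and of the 32 peaking from CT16 to CT24, 6.25% and 34.4%. Genes with several annotated starts have several windows, and a gene was counted once if any window matched. These counts describe letters in the windows and were not tested.

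**Figure D1:**
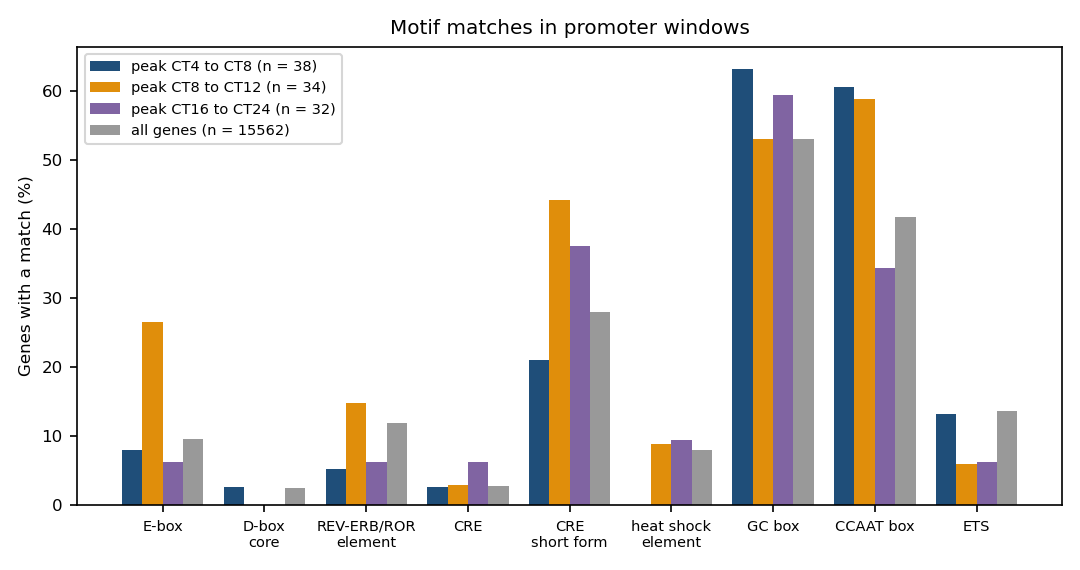
Share of genes (%) with at least 1 match to each motif in the promoter window, for the 38 genes peaking from CT4 to CT8, the 34 peaking from CT8 to CT12, the 32 peaking from CT16 to CT24 and all 15562 genes with a window. The E-box share is 7.89% in the CT4 to CT8 genes and 26.5% in the CT8 to CT12 genes.

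The fitted curves were shallow. The amplitude, which is the log2 distance between a gene's mean and its fitted peak, lay between 0.08 and 0.40 with a median of 0.19, against a median of 0.06 for all genes. The fitted peak was 1.11 to 1.74 times the fitted trough, with a median of 1.30, and R squared lay between 0.644 and 0.807. Peaks had a median of CT6.67, with the middle range from CT5.94 to CT7.21. As background, by limma's moderated F test 0 of 46 genes had a Benjamini-Hochberg adjusted p under 0.05 over all genes (0.450 to 0.996), where 0.0251% of all genes did, that is 5 genes (3 without CT20, CT24, CT36, CT44 or CT48). At an unadjusted p under 0.05 there were 43 of 46 genes and 3.54% of all genes. The rule used this contrast, so nothing about the 46 genes is read from these counts.

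**Figure D2:**
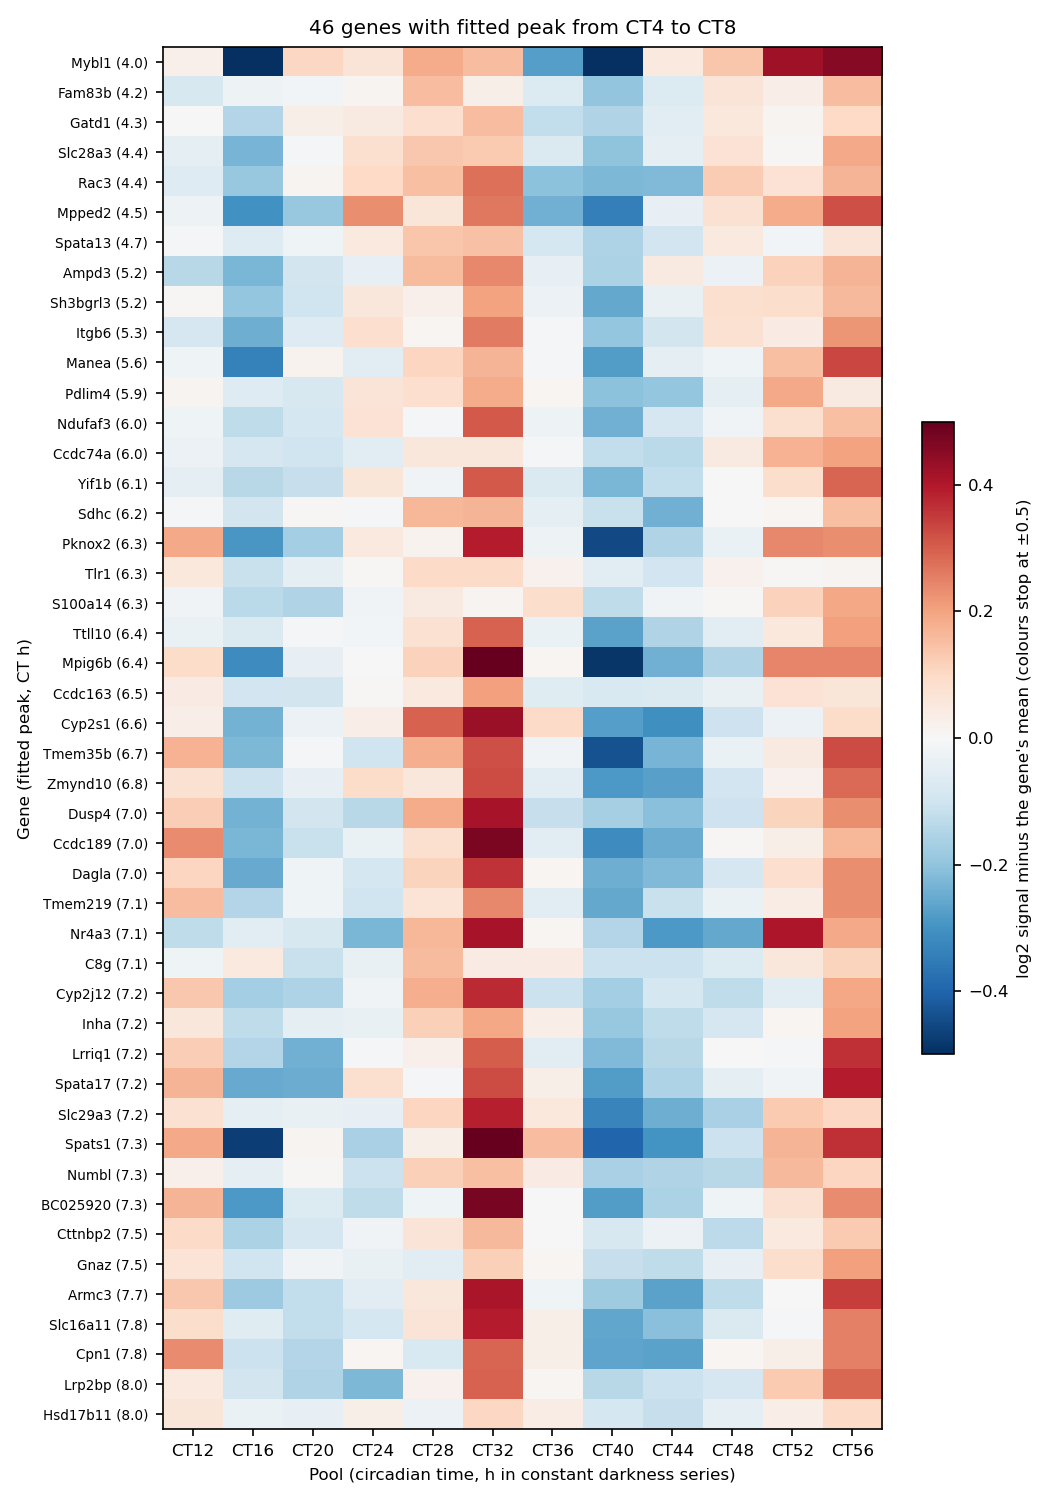
Log2 signal minus the gene's own mean (colour, stopped at 0.5 above or below) for the 46 genes, in rows by fitted peak with the earliest on top, in the 12 pools from CT12 to CT56. All 46 genes lie above their mean at CT32 and CT56 and 0 at CT40.

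The shape over the pools was shared. The median of the 46 genes, each set to its own mean, was 0.04, -0.15, -0.07, -0.01, 0.08, 0.27, -0.01, -0.21, -0.13, -0.03, 0.06 and 0.20 log2 units from CT12 to CT56. The drop lay between phases CT8 and CT16, and the climb was spread over CT20, CT0, CT4 and CT8. Averaged over the 2 pools of a phase, 42 genes were highest at phase CT8 and 4 at CT4, and 34 were lowest at CT16, 9 at CT20 and 3 at CT0. The single highest pool was CT32 in 31 genes, CT56 in 11, CT28 in 2 and CT52 in 2. The 4 pools of phases CT4 and CT8 all lay above the 4 pools of CT16 and CT20 in 42 of 46 genes and in 2.14% of all genes, again as the rule asks. The exceptions were Gnaz, C8g, Cyp2s1 and Gatd1.

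Each cycle was also fitted alone, a description that the rule favours. The peaks of the second and the first cycle lay within 2 h of each other in 43 of 46 genes, against 21% of all genes, with a median gap of 0.773 h. The median peak was CT6.35 in the second cycle and CT6.77 in the first. The median amplitude was 0.20 in the second cycle and 0.17 in the first. Without the CT32 and CT56 pools, 16 of the 46 genes still met the rule, among 48 genes that did. With arrays weighted by their agreement with the fit, in which CT56 had the lowest weight (0.332), 26 of the 46 remained among 48. Of the 46 genes, 14 met the rule without each single pool in turn, and Cpn1, Mybl1 and Gatd1 met it in under 6 of these 12 fits.

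The ordering of the genes by role follows textbook knowledge of each gene and was made by hand after the genes were known. It has 6 genes of the axoneme and sperm tail, 3 transcription factors, 9 genes of signalling and the cytoskeleton, 8 secreted, surface, blood or immune proteins, 12 of metabolism, transport and the Golgi, and 8 with no role given. The axoneme and sperm tail role is a loose one, since it also holds genes described only from the testis, such as Spats1 and Spata17.

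**Figure D3:**
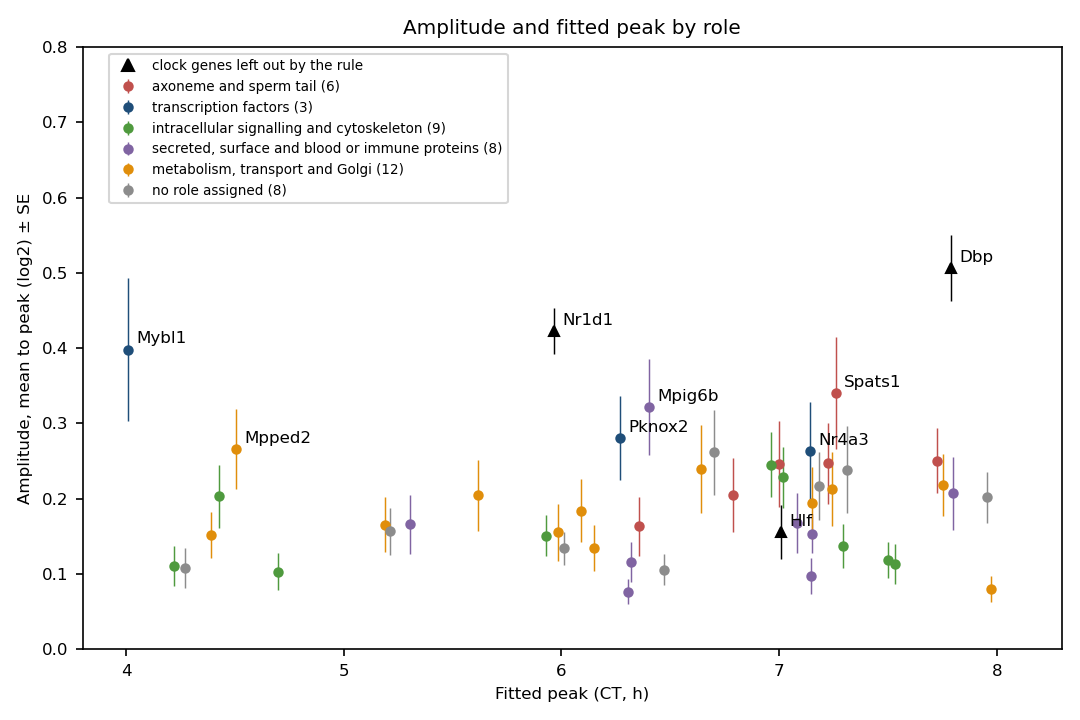
Amplitude (log2, mean to peak, bars show SE from the fit over 12 pools) against fitted peak (CT, h) for the 46 genes, coloured by role, with Nr1d1, Dbp and Hlf as triangles. Mybl1 has the largest amplitude of the 46 at the early edge of the window, and the 6 genes given the axoneme and sperm tail role lie between CT6.36 and CT7.72.

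The genes given the axoneme and sperm tail role peaked between CT6.36 and CT7.72, with amplitudes from 0.16 to 0.34. Their median peak was CT7.11, against CT6.96 for the genes of signalling and the cytoskeleton and CT6.67 for all 46 genes. Motile cilia and sperm tails share the microtubule skeleton of the axoneme, and the nasal lining carries multiciliated cells beside the sensory epithelium. Spats1 had log2 values of 8.23, 7.57, 8.05, 7.88, 8.07, 8.56, 8.19, 7.64, 7.74, 7.93, 8.21 and 8.40 from CT12 to CT56. Spats1, a gene known from the testis, was lowest in both CT16 pools and highest in both CT8 pools with a fitted amplitude of 0.34 ± 0.07 (SE, n = 12 pools) at CT7.26. Armc3 had log2 values of 9.02, 8.71, 8.77, 8.83, 8.94, 9.29, 8.87, 8.71, 8.62, 8.76, 8.89 and 9.23 from CT12 to CT56. Armc3, an armadillo-repeat protein of the sperm flagellum, had its 2 highest values at CT32 and CT56, above all others, with an amplitude of 0.25 ± 0.04 at CT7.72, or 0.17 without those 2 pools. Spata17 had log2 values of 8.62, 8.19, 8.20, 8.53, 8.44, 8.77, 8.47, 8.16, 8.29, 8.40, 8.43 and 8.84 from CT12 to CT56. Spata17, a calmodulin-binding protein of the testis, reached 8.84 and 8.77 at phase CT8, with CT12 the next highest at 8.62, and its amplitude was 0.25 ± 0.05 at CT7.22. Ccdc189 had log2 values of 9.69, 9.23, 9.34, 9.42, 9.53, 9.93, 9.40, 9.14, 9.21, 9.46, 9.49 and 9.62 from CT12 to CT56. Ccdc189, a protein of the flagellar axoneme, was highest at CT32 (9.93) and next at CT12 (9.69), above CT56 (9.62), with an amplitude of 0.25 ± 0.06 at CT7.00. Zmynd10, needed to assemble the dynein arms that drive cilia, lay between 8.68 at CT40 and 9.29 at CT32 with an amplitude of 0.20 ± 0.05 at CT6.79. Ttll10, an enzyme that adds glycine chains to proteins, lay between 9.28 at CT40 and 9.85 at CT32 with an amplitude of 0.16 ± 0.04 at CT6.36.

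Of the 22 measured genes of a motile cilia list (Foxj1, dynein arm, radial spoke and tektin genes among them), 0 were among the 46, against 0.264% of all allowed genes. Their fitted peaks fell in the CT4 to CT8 window in 12 of 22 genes (54.5%) at any R squared, against 20% of all genes. The mean of the list was 8.55, 8.54, 8.75, 8.82, 8.85, 8.87, 8.60, 8.68, 8.72, 8.65, 8.67 and 9.0 log2 units from CT12 to CT56. The list was highest at CT56 and lowest at CT16 and CT12, with an amplitude of 0.11 at CT4.38 and an R squared of 0.347. After the 24 h curve was taken out of both, the correlation of each of the 46 genes with the list mean over the 12 pools had a median of 0.32, against -0.02 for all genes, and exceeded 0.5 in 10 of 46 genes, against 13.1% of all genes. This was not particular to cilia: 27 of the 54 lists and families had a higher median, among them cholesterol synthesis (0.58, over 0.5 in 29 of 46 genes), the clock loop (0.55, in 25) and immature sensory neuron markers (0.54, in 25). Over all genes, the medians with these lists were 0.13, 0.10 and 0.05, and 27.3%, 22.7% and 23.1% exceeded 0.5. With the cilia list mean, Slc28a3 (0.69) and Armc3 (0.65) were highest and Pdlim4 was lowest (-0.37). With the list mean as a covariate, added after the data had been seen, 17 of the 46 genes kept an R squared of 0.64 and 12 met the whole rule. The amplitudes of the 22 genes named in every pool were then 0.755 to 1.02 times those reported, with a median of 0.895. The part of the ciliated cells in these values was not tested.

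Transcription factors had the largest amplitudes as a group, with a median of 0.28. Mybl1 had log2 values of 9.25, 8.53, 9.32, 9.28, 9.40, 9.37, 8.94, 8.59, 9.27, 9.36, 9.64 and 9.67 from CT12 to CT56. Mybl1 (A-MYB), known as a driver of male meiosis, was low in the 2 pools of phase CT16, at 8.53 and 8.59, and lay between 8.94 and 9.67 in the other 10, so that its pattern is a dip at CT16 more than a peak. Its amplitude was 0.40 ± 0.09, a fitted 1.74-fold range, at CT4.01. Pknox2 had log2 values of 9.34, 8.86, 8.99, 9.21, 9.17, 9.55, 9.13, 8.71, 9.01, 9.12, 9.39 and 9.39 from CT12 to CT56. Pknox2, a homeodomain factor that partners PBX proteins, was lowest at CT40 and CT16 and highest at CT32, with an amplitude of 0.28 ± 0.06 at CT6.27. Nr4a3 had log2 values of 6.28, 6.35, 6.33, 6.18, 6.58, 6.82, 6.42, 6.26, 6.12, 6.15, 6.81 and 6.60 from CT12 to CT56. Nr4a3 (NOR1), an orphan nuclear receptor induced as an immediate early gene, was at 6.58 or above in the 4 pools of phases CT4 and CT8 and at 6.42 or below in the other 8. Its amplitude was 0.26 ± 0.07 at CT7.14, and its R squared, 0.644, was the lowest of the set. The R squared of Nr4a3 was 0.512 without CT32 and CT56 and 0.479 with array weights. It is a dim gene, with a mean of 6.41, where the 25th percentile of all genes is 7.10. Of 21 immediate early genes measured, Nr4a3 was the only one among the 46 (4.76%, against 0.264%), and 4 of 21 peaked in the window at any R squared (19.0%, against 20% of all genes).

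**Figure D4:**
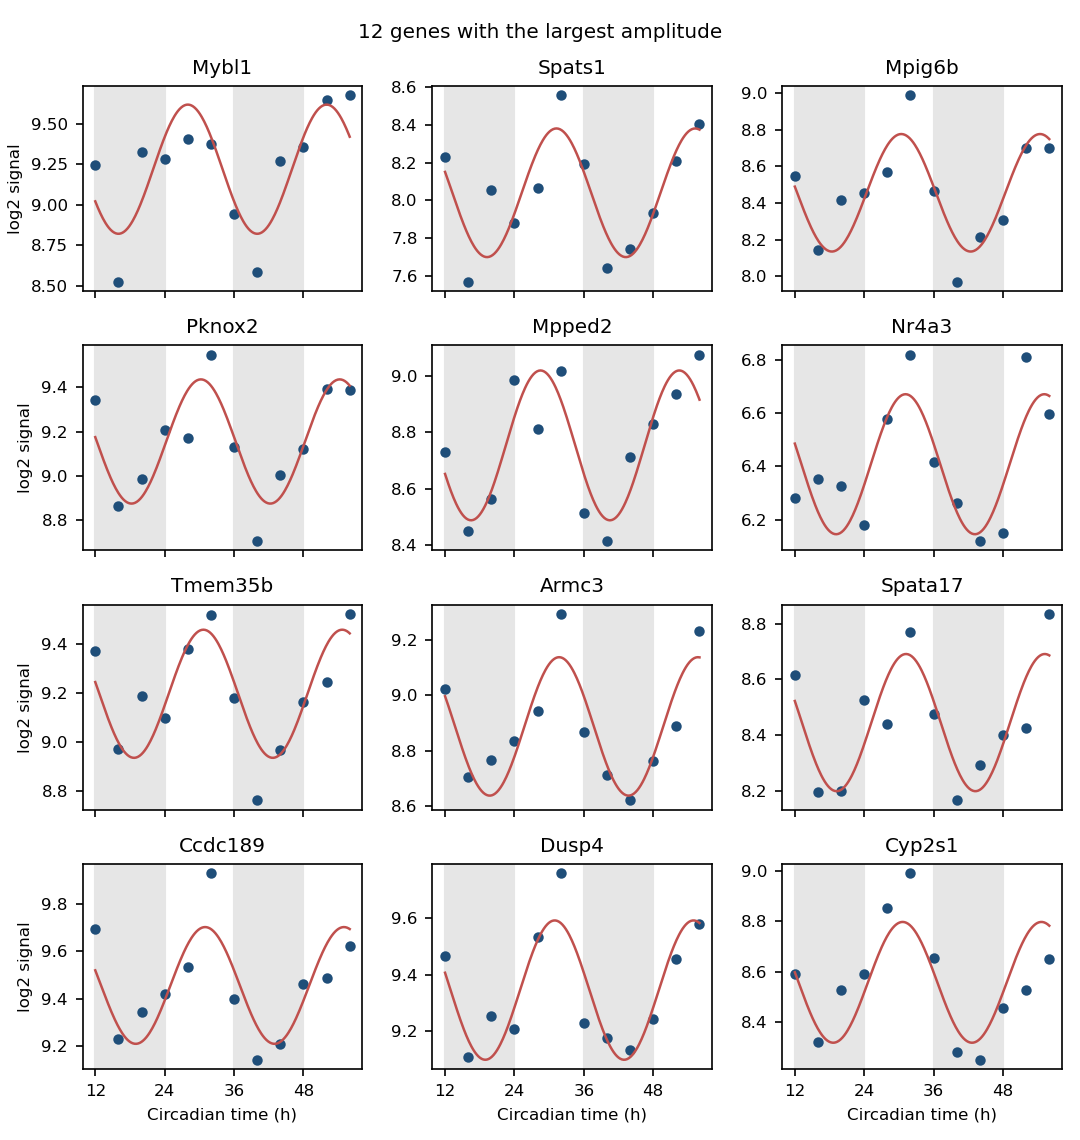
Log2 signal (points, 1 pool of 4 mice each) and fitted 24 h curve (line) against circadian time (h) for the 12 genes with the largest amplitude, with subjective night shaded. Mybl1 dips at CT16 and CT40, and most others have their highest point at CT32.

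Genes of signalling and the cytoskeleton had a median amplitude of 0.14, with peaks from CT4.22 to CT7.53. Dusp4 had log2 values of 9.47, 9.11, 9.25, 9.21, 9.53, 9.76, 9.23, 9.18, 9.14, 9.24, 9.46 and 9.58 from CT12 to CT56. Dusp4, a nuclear phosphatase that inactivates MAP kinases, was highest at CT32 and CT56, and its 4 values at phases CT16 and CT20 were 9.25 or below, with an amplitude of 0.25 ± 0.04 at CT6.96. Dagla had log2 values of 8.77, 8.41, 8.64, 8.58, 8.78, 9.02, 8.68, 8.42, 8.44, 8.58, 8.75 and 8.90 from CT12 to CT56. Dagla, the diacylglycerol lipase that makes the main endocannabinoid of neurons, was likewise highest at CT32 and CT56 and lowest at CT16 and CT40, with an amplitude of 0.23 ± 0.04 at CT7.02. Both genes met the rule without each single pool in turn. Of the family of protein phosphatases and dual-specificity phosphatases, matched by symbol, Dusp4 was 1 of 153 measured genes in the set (0.654%, against 0.264% of all allowed genes).

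The other 7 had smaller amplitudes. Rac3, a small GTPase of the actin skeleton, peaked early, at CT4.43 with an amplitude of 0.20 ± 0.04, as did Spata13, an exchange factor for such GTPases (0.10 ± 0.02 at CT4.70). Fam83b, linked to growth factor signalling in human cells, also peaked early (0.11 ± 0.03 at CT4.22). Pdlim4, an actin-associated LIM protein, had 0.15 ± 0.03 at CT5.93. Peaks after CT7 were those of Numbl, an adaptor related to the Notch inhibitor Numb (0.14 ± 0.03 at CT7.29), Cttnbp2, a cortactin-binding protein of neurons (0.12 ± 0.02 at CT7.50), and Gnaz, a G protein subunit that inhibits adenylyl cyclase (0.11 ± 0.03 at CT7.53).

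Secreted, surface, blood and immune proteins had a median amplitude of 0.16. Mpig6b had log2 values of 8.55, 8.14, 8.42, 8.45, 8.57, 8.99, 8.47, 7.97, 8.21, 8.31, 8.70 and 8.70 from CT12 to CT56. Mpig6b (G6b-B), an inhibitory receptor of platelets and megakaryocytes, was highest at CT32 and lowest at CT40, with an amplitude of 0.32 ± 0.06, a fitted 1.56-fold range, at CT6.40. Of 4 other platelet genes, looked up after its values were seen, none reached the R squared of 0.64: Pf4 had 0.521 with a peak at CT6.12, Itga2b 0.185 at CT10.19, Gp9 0.0886 at CT13.81 and Ppbp 0.0630 at CT9.24. Inha had log2 values of 8.48, 8.30, 8.38, 8.38, 8.54, 8.62, 8.45, 8.23, 8.29, 8.34, 8.43 and 8.62 from CT12 to CT56. Inha, the inhibin alpha subunit, lay between 8.23 at CT40 and 8.62 at CT32 and CT56, with an R squared of 0.800 and an amplitude of 0.15 ± 0.03 at CT7.15. Cpn1, the catalytic subunit of the plasma enzyme carboxypeptidase N, had 0.21 ± 0.05 at CT7.80, and C8g, a chain of complement component C8, had 0.10 ± 0.02 at CT7.14. Itgb6, an epithelial integrin that activates latent TGF-beta, had 0.17 ± 0.04 at CT5.30, and Tmem219, described in human cells as a receptor for an IGF-binding protein, 0.17 ± 0.04 at CT7.08. The smallest amplitude of the set was that of Tlr1, a receptor for bacterial lipopeptides (0.08 ± 0.02 at CT6.31), which also had the lowest mean level, 5.83. S100a14, an epithelial calcium-binding protein, had 0.12 ± 0.03 at CT6.32. Of 18 lists of cell type markers, for neurons, basal, supporting, gland, glial, immune, vessel, blood, matrix, bone, muscle, brain and airway cells, 0 of 219 measured genes were in the set, against 0.264% of all allowed genes.

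Metabolism, transport and the Golgi made up the largest role, with 12 genes and a median amplitude of 0.19. Sdhc had log2 values of 10.67, 10.59, 10.68, 10.67, 10.84, 10.84, 10.62, 10.56, 10.43, 10.68, 10.69 and 10.82 from CT12 to CT56. Sdhc, a membrane anchor of succinate dehydrogenase (complex II), was at or above 10.69 in the 4 pools of phases CT4 and CT8 and at or below 10.68 in the other 8, with an amplitude of 0.13 ± 0.03 at CT6.15. Ndufaf3 had log2 values of 10.23, 10.12, 10.16, 10.32, 10.24, 10.56, 10.22, 10.01, 10.16, 10.23, 10.33 and 10.40 from CT12 to CT56. Ndufaf3, an assembly factor of complex I, was highest at CT32 and CT56 and lowest at CT40, with an amplitude of 0.15 ± 0.04 at CT5.99. These were 2 of 91 genes of the oxidative phosphorylation family, matched by symbol (2.20%, against 0.264%). Of the family, 34.1% peaked in the window at any R squared, against 20% of all genes. The mean of the family had an amplitude of 0.04 and an R squared of 0.179.

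Transporters and enzymes of small molecules followed the same pools. Slc16a11 had log2 values of 10.27, 10.12, 10.06, 10.10, 10.25, 10.58, 10.21, 9.93, 9.98, 10.11, 10.17 and 10.44 from CT12 to CT56. Slc16a11, of the monocarboxylate transporter family, was highest at CT32 and CT56, with an amplitude of 0.22 ± 0.04 at CT7.75. Slc29a3 and Slc28a3, both nucleoside transporters, had fitted peaks at the 2 sides of the window, with 0.21 ± 0.05 at CT7.24 and 0.15 ± 0.03 at CT4.39. These were 3 of 364 solute carriers measured (0.824%, against 0.264% of all allowed genes). Ampd3, an AMP deaminase of the purine nucleotide cycle, had 0.17 ± 0.04 at CT5.19. Mpped2 had log2 values of 8.73, 8.45, 8.56, 8.99, 8.81, 9.02, 8.51, 8.41, 8.71, 8.83, 8.94 and 9.08 from CT12 to CT56. Mpped2, a metallophosphoesterase, was lowest at CT16 and CT40 and had already climbed by CT0, with an amplitude of 0.27 ± 0.05 at CT4.51.

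Of 112 cytochrome P450 and conjugating enzymes measured, 2 were in the set (1.79%, against 0.264%). Cyp2s1 had log2 values of 8.59, 8.32, 8.53, 8.59, 8.85, 8.99, 8.65, 8.28, 8.25, 8.46, 8.53 and 8.65 from CT12 to CT56. Cyp2s1, a P450 of epithelia, was highest at CT28 and CT32 in the first cycle, but CT52 (8.53) and CT56 (8.65) in the second cycle did not stand above CT36 (8.65). Its amplitude was 0.24 ± 0.06 at CT6.64. Cyp2j12, of a P450 family that acts on fatty acids, had 0.19 ± 0.05 at CT7.15. Hsd17b11 had log2 values of 11.80, 11.71, 11.70, 11.77, 11.71, 11.84, 11.77, 11.65, 11.63, 11.69, 11.77 and 11.84 from CT12 to CT56. Hsd17b11, a short-chain dehydrogenase of lipid droplets, lay between 11.63 and 11.84 over all pools and had an amplitude of 0.08 ± 0.02 at CT7.97. Manea had log2 values of 11.81, 11.49, 11.85, 11.77, 11.94, 12.00, 11.82, 11.55, 11.78, 11.81, 11.98 and 12.16 from CT12 to CT56. Manea, the Golgi endomannosidase that trims N-glycans, was low at CT16 and CT40, as Mybl1 was, with an amplitude of 0.20 ± 0.05 at CT5.62. Yif1b, of traffic between the endoplasmic reticulum and the Golgi, had 0.18 ± 0.04 at CT6.09.

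The 8 genes with no role given had amplitudes from 0.11 to 0.26. Tmem35b had log2 values of 9.37, 8.97, 9.19, 9.10, 9.38, 9.52, 9.18, 8.76, 8.97, 9.16, 9.24 and 9.52 from CT12 to CT56. Tmem35b was highest at CT32 and CT56 and lowest at CT40, with an amplitude of 0.26 ± 0.06 at CT6.70. Lrp2bp had log2 values of 7.32, 7.18, 7.12, 7.05, 7.29, 7.57, 7.28, 7.13, 7.16, 7.19, 7.40 and 7.56 from CT12 to CT56. Lrp2bp, which binds the endocytic receptor megalin, had its 2 highest values at CT32 and CT56 and an amplitude of 0.20 ± 0.03 at CT7.96. Ccdc74a had log2 values of 8.20, 8.15, 8.13, 8.17, 8.29, 8.29, 8.22, 8.11, 8.10, 8.27, 8.40 and 8.43 from CT12 to CT56. Ccdc74a had the highest R squared of the set, 0.807, with its highest values at CT52 and CT56, and an amplitude of 0.13 ± 0.02 at CT6.01. Sh3bgrl3 had log2 values of 10.29, 10.09, 10.18, 10.34, 10.31, 10.48, 10.26, 10.03, 10.25, 10.37, 10.37 and 10.45 from CT12 to CT56. Sh3bgrl3, a small protein of the thioredoxin fold, was lowest at CT40 and CT16, with an amplitude of 0.16 ± 0.03 at CT5.21. The others were Lrriq1 (0.22 ± 0.05 at CT7.18), Gatd1 (0.11 ± 0.03 at CT4.27), Ccdc163 (0.11 ± 0.02 at CT6.47) and BC025920, a transcribed pseudogene (0.24 ± 0.06 at CT7.31). Ccdc189, Ccdc74a and Ccdc163 were 3 of 295 genes matched by symbol patterns meant for the centrosome and cilium (1.02%, against 0.264%). All 3 carry the prefix Ccdc, and a match by symbol does not show such a function. Ccdc74a and Ccdc163 have no role given here.

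Some clock genes, left out by name, fell in the same window, and Nr1d1 and Dbp had larger amplitudes and higher R squared than all 46 genes. Nr1d1 had 0.42 ± 0.03 at CT5.97 with an R squared of 0.955, and Dbp 0.51 ± 0.04 at CT7.79 with 0.936. Both had an adjusted p of 0.00173 in limma's F test. Hlf had 0.16 ± 0.04 at CT7.01 with 0.669, inside the range of the 46 genes. Bhlhe41 (0.22 ± 0.08 at CT6.07) and Bhlhe40 (0.16 ± 0.06 at CT4.58) peaked in the window with R squared of 0.479 and 0.472, below the limit. Cry2 peaked at CT6.64 with an R squared of 0.149. The other genes that met both limits but not the names rule were 3 predicted Gm genes, 3 Rik genes and the odorant receptor Olfr591 (amplitude 0.33 ± 0.08 at CT5.43).

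The limits of the set cut through a continuous range. Just inside the R squared limit lay Nr4a3 (0.644), Gatd1, Cyp2j12 and Cyp2s1 (0.647), and just outside lay Nrg4 (0.639), Mpst, Pycrl and Sp4 (0.638). At the early edge of the window, Mybl1 (CT4.01), Fam83b, Gatd1 and Slc28a3 lay inside and Wasf2 (CT3.82), H1f2, Rbl1 and Nupr1 (CT2.54) outside. At the late edge, Hsd17b11 (CT7.97), Lrp2bp, Cpn1 and Slc16a11 lay inside and Tmem143 (CT8.00), Gramd1c, Arf5 and AA388235 (CT8.05) outside. With the same R squared and the same genes left out, 8 genes peaked from CT0 to CT4, 43 from CT8 to CT12, 6 from CT12 to CT16, 13 from CT16 to CT20 and 25 from CT20 to CT24.

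What remained after the 24 h curve was removed was also shared between many of the genes. Over 1035 pairs, the correlation of residuals over the 12 pools had a median of 0.45 and exceeded 0.5 in 44.2%, against 0.03 and 20.7% over all gene pairs. The pairs share arrays, and no test was made. The same pools chose the genes, so the rule may bear on their residuals too. The sharing was not confined to the set. The residuals of the 46 genes had median correlations of 0.46 with the mean of ubiquitin enzymes and 0.45 with that of vesicle traffic genes. For all genes these were 0.11 and 0.07. Neither list holds any of the 46 genes, and both list means were highest at CT32 and lowest at CT36. Other lists went the other way. Over the 54 lists and families, the medians for the 46 genes ran from -0.48 for brain markers to 0.58 for cholesterol synthesis. They were -0.30 for skeletal muscle markers and -0.28 for collagens. For all genes, the medians were 0.06 with brain markers, 0.08 with muscle markers and 0.09 with collagens. Residuals were above 0 in 41 of 46 genes at CT32 and in 41 at CT20, and in 5 at CT40, 9 at CT36, 9 at CT52 and 11 at CT28. The share of all genes above 0 in each pool was not computed, so these counts cannot be read as particular to the set. The array medians over all probes ran from 7.81 at CT48 to 7.92 at CT36. They were 7.85 at CT32, 7.87 at CT20, 7.86 at CT40, 7.90 at CT52 and 7.87 at CT28. The part of such array offsets in the residuals was not tested. The genes given the axoneme and sperm tail role had the highest median among these hand-made roles (0.66 over 15 pairs), and the 3 transcription factors a median of -0.07. The highest pairs were Tmem219 with Tmem35b (0.948), Gatd1 with Armc3 (0.940) and Slc16a11 with Ttll10 (0.931).

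**Figure D5:**
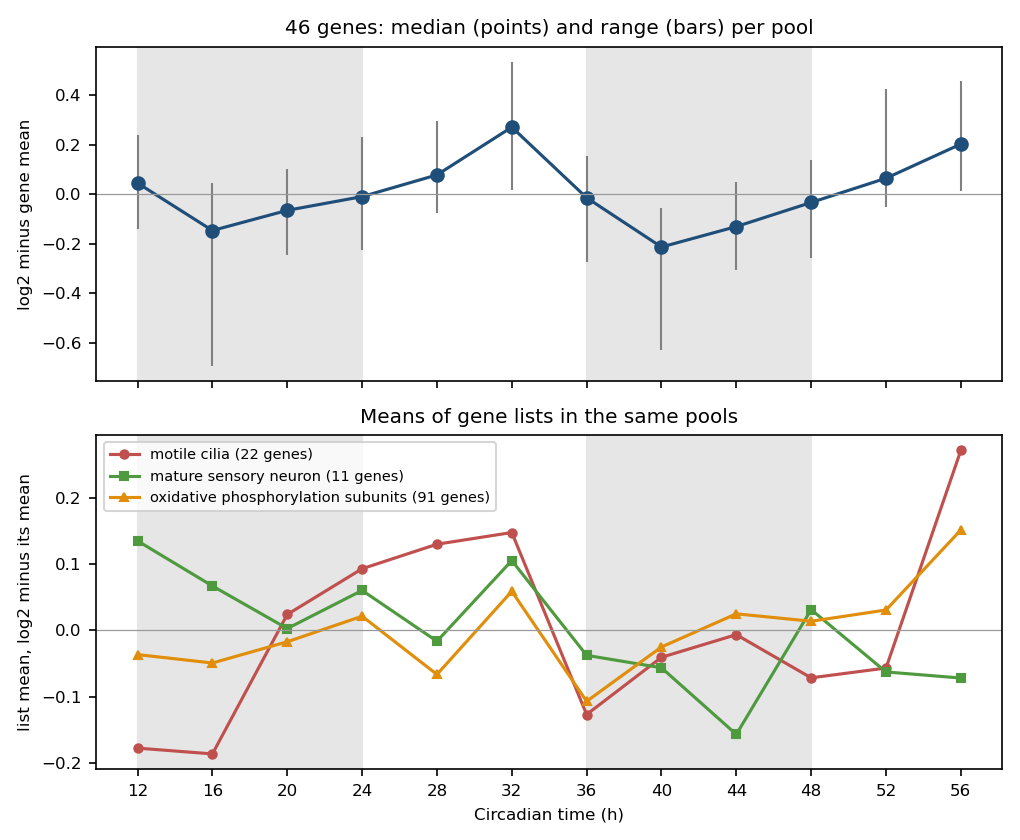
Top, median (points) and range (bars) of the 46 genes' log2 signal minus each gene's mean, by pool; bottom, means of 3 gene lists over the same pools, each minus its own mean, with subjective night shaded. The 46 genes are highest at CT32 and lowest at CT40, while the motile cilia list is highest at CT56 and lowest at CT16.

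Whether level drifted between the cycles in constant darkness is a question the rule did not use, although a high R squared limits the size a gene can show. With phase as a factor, limma found 0 of 46 genes changed between the second and the first cycle at an adjusted p of 0.05, and 0% of all genes. In simulated data this test found 29.9% of shifts of 0.3 log2 units, so shifts of that size or smaller could be missed. At an unadjusted p under 0.05, 4 of 46 genes were lower in the second cycle (Cyp2s1, Zmynd10, Slc29a3 and Ccdc189), against 8.94% of all genes, and 0 were higher, against 4.22%. In 37 of 46 genes the second cycle was lower at any p, against 61.7% of all genes, by a median of -0.05 log2 units, against -0.03. Cyp2s1 had the smallest p, with a second minus first difference of -0.18 ± 0.06 (SE, 6 pools a cycle, limma adjusted p = 0.316). Without the CT36 pool, or without the CT12 pool, 18 genes passed the adjusted threshold, 0 of them among the 46.

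A second question on shape was whether 12 h terms, added beside the 24 h terms, took up more of the signal, again limited by the rule. By limma 0 of 46 and 0% of all genes passed an adjusted p of 0.05, and 6 of 46 had an unadjusted p under 0.05, against 5.33% of all genes. These 6 were Spats1, Mybl1, Spata17, BC025920, Nr4a3 and Manea. Spats1 had the smallest p, with a 12 h amplitude of 0.18 (limma adjusted p = 0.817). The fitted 12 h peak lay within 1 h of CT8 and CT20 in 21 of 46 genes (45.7%), against 24.9% of all genes, and the median 12 h amplitude was 0.09 in the 46 genes and 0.07 in all genes. The choice of CT8 and CT20 for this count was not planned. Since 42 of the 46 genes were highest at phase CT8, the count is only a description.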

How the data were processed

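RNA of 12 pools was measured, 1 array each. Per the labels' protocols, total RNA was taken with Trizol, copied with the Ambion WT Expression kit and biotin-labelled. The deposited values are 1 number per probe and pool, read as log2 intensities from their range of 3.48 to 14.47 and used as deposited by the authors. The submitters' processing notes name affy. Its version, and any background correction, normalization or build, were not given in the sources used.

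Of 34760 probes, the platform annotation gives 21640 a single symbol and 1321 several. RefSeq (GRCm38.p6) matched 21553 of them by Entrez ID and changed 0 symbols. The probe with the highest mean stood for each of 954 genes with several, which left 19937 genes. None of the 46 genes had a second probe.

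The 24 h curve was fitted by least squares with a mean to peak amplitude and its SE, on 9 residual degrees of freedom. Tests used limma 3.58.1 in R 4.3.3 (data.table version 1.17.8) with Benjamini-Hochberg adjustment over all genes at 0.05. They were tried on simulated data with normal errors. At 0.3 log2 units they found 61.2% of 24 h rhythms, 29.9% of cycle shifts and 52.2% of 12 h rhythms. At 1 log2 unit they found 98.5%, 95.5% and 98.5%. Figures used matplotlib 3.10.9, numpy 2.4.6, pandas 2.3.3 and Python 3.11.15.

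The rule for genes given in every pool takes the 12 largest amplitudes, the 6 highest R squared and the 6 highest mean levels, 22 genes in all. Other members are named with amplitude and peak. Also named are clock genes in the window, the 4 genes nearest each limit and, for the cycle and 12 h tests, the smallest p. Genes named outside it, such as the pairs and the unadjusted calls, were chosen after their values were seen. The members and the gene lists were chosen with earlier results of these data known. Alternatives were other R squared limits and windows, quantile normalization, median centring, filters on dim genes, probe means, a linear term, a cycle block, periods of 22 and 26 h, 12 h terms, array weights, a robust prior, a shorter promoter window and the loss of pools.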

Additional observations from a re-analysis of the deposited data

Results flagged for a closer look

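Mybl1 was low at CT16 among the 6 first-cycle pools. Its level there was 8.53 log2 units, and the gap to the next lowest pool was 0.820 of the whole range of the 6, above Dixon's 95% critical value. The CT40 pool, 24 h later, was also its lowest in the second cycle. Of 44 groups of 6 pools screened (22 genes in 2 cycles), this was the only one past that value. The value assumes 6 draws from 1 normal population. Here the 6 pools are different phases of genes chosen for a 24 h curve, so no chance rate can be set beside the count.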

How the results depend on the processing

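The number of genes meeting the rule stayed within 1.5 times under 12 of 29 alternatives and moved by more under 17. A count that stayed did not always hold the same genes. It was 48 without CT32 and CT56 (16 of the 46 kept), 48 with array weights (26 kept) and 61 with a 26 h period (32 kept). It was 32 without CT40 (26 kept) and 69 without CT12 (43 kept). Against 46 genes, there were 81 at an R squared of 0.6, 20 at 0.7, 71 for a window of CT3 to CT9 and 19 for CT5 to CT7. There were 73 after quantile normalization (34 of the 46 kept), 29 after median centring (23 kept), 30 once the dimmer genes, up to the 50th percentile of mean level, were dropped, 195 with a linear term of time (40 kept), 30 with a 22 h period (19 kept) and 288 with 12 h terms. With the cycle as a replicate block, 123 genes met the rule, including all 46. With this block, the linear term, the 12 h terms or the covariate, R squared was the share of the variance left after those terms. The block and the 12 h terms are at right angles to the 24 h terms, so none of the 46 genes could be lost to them. The mean of the motile cilia list as a covariate, chosen after seeing the data, gave 23 (12 kept). Leaving out single pools gave 32 to 147. In the 24 h test over all genes, 5 calls became 0 with a 22 h period, 2 with 26 h, 8 with 12 h terms and 3 to 5 without single pools. The 0 calls between cycles became 1 once those up to the 25th percentile were dropped, 1 with a robust prior and 0 to 18 without single pools. The CRE share became 0% with the 250 bases before the start alone, since its match lies after the start. The causes of the other shifts were not tested. The median difference between cycles stayed between -0.07 and -0.04, the 12 h calls stayed at 0, and the 506 amplitudes of named genes under alternatives were 0.664 to 1.22 times those reported. Of these, 11 lay more than 1 SE away, 8 of them without CT32 and CT56, where Armc3 had 0.17, Slc16a11 0.15, Spata17 0.17 and Ndufaf3 0.10. The 506 include values that could not move. These are the amplitudes with the block, with the 12 h terms and with probe means, since none of the 46 genes has a second probe. Signal over background is not given per probe, so dim genes could not be set apart on it.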
